A study of Mus musculus with 41 samples.

Results

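The Wnt pathway genes described here are 10 secreted inhibitors, feedback genes and nuclear effectors, chosen by name from the 21887 mouse protein-coding genes of the RefSeq annotation. The secreted modulators are Wif1, Sfrp1, Sfrp2, Sfrp5, Dkk1 and Rspo3, the intracellular feedback genes are Nkd1 and Axin2, and the nuclear effectors are Lef1 and Tcf7. For each gene the covered share of its promoter window, its gene span and its flanks to 50 kb was measured in region lists from chromatin immunoprecipitation sequencing of 6 histone marks.

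Proliferating chondrocytes (PC) came from cartilage of E13.5 (embryonic day) mouse embryos carrying the transgene Tg(Col2a1-cre)1Star. Hypertrophic chondrocytes (HC) came from E15.5 mouse embryos carrying Tg(Col10a1-cre)1427Vdm, and both lines carried the reporter allele Gt(ROSA)26Sortm1(EYFP)Cos. Cre was thus driven by the promoter of a cartilage collagen in one group and of a collagen of hypertrophic cartilage in the other, and a cell once recombined at such a reporter stays labelled in its descendants. The cells were sorted by flow cytometry, and each mark had 3 PC and 2 HC libraries. Stage, Cre line and cell type changed together between the groups, so their parts cannot be told apart. Nothing in the labels says how many embryos a library pooled, and p-values measure the spread between these libraries.

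The region lists give positions without scores or read counts, so sequencing depth is unknown and a covered share says where a region was called, not how strong it was. The 2 HC lists of H3K27me3 held 98.1 and 98.99 Mb against 63.7 to 92.8 Mb in PC, but on the autosomes, where all 10 genes lie, they held 63.2 and 73.2 Mb against 57.5 to 74.7 Mb. HC replicate 5 had the shortest H3K27ac list, at 46.1 Mb against 70.2 to 98.4 Mb in PC, while HC replicate 7 held 91.7 Mb. Of 11 hypertrophic marker genes, 5 carried H3K27ac at the promoter in every PC library and 1 in both HC libraries. The promoter of Col10a1, the defining collagen of hypertrophic cartilage, was covered by H3K27me3 over 100% and 99.5% in HC and 0% in all 3 PC libraries, by H3K9ac over 5% and 15% in HC and 0% in PC, and by H3K27ac over 30% and 0% in HC and 0% to 5% in PC. Only the HC embryos carried a Col10a1-cre transgene, so copies of its promoter sequence may have added to these values, which was not tested. Col10a1 is also among the 11 markers counted. The promoter of Mmp13 carried none of these marks, nor H3K4me3, in any library. These markers go against the hypertrophic label, so HC below means the libraries labelled hypertrophic. The promoter of the cartilage collagen Col2a1 was covered by H3K4me3 over 2.5%, 5% and 5% in PC and 38.5% and 40.96% in HC. Its H3K9ac was 5%, 0% and 0% in PC and 35.96% in both HC libraries, and its H3K27me3 50% in every library. Only the PC embryos carried a Col2a1-cre transgene, and its part in these values was not tested. Of 8 muscle markers, 0 carried H3K27ac in every PC library and 4 in both HC libraries, and the mean covered share of the list was 3.09% to 13.1% in PC and 21.3% and 36.2% in HC. By the same count, endothelial markers went from 1 to 3 of 6, epidermal markers from 2 to 4 of 8 and neural markers from 2 to 1 of 6. Blood markers went from 2 to 3 of 6. Markers of perichondrium, tendon and joint were marked in both groups, going from 7 to 8 of 8. Their mean H3K27ac cover was 62.01% to 74.97% in PC and 49.72% and 61.55% in HC. The list of 14 cartilage markers had a mean H3K27ac cover of 70.9% to 78.9% in PC and 36.7% and 49.4% in HC, and a mean H3K27me3 cover of 16.7% to 19.996% in PC and 37.1% and 44.3% in HC. The part of these cells and marker changes in the values below was not tested.

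Wnt proteins bind Frizzled and Lrp receptors and stabilise beta-catenin, which then acts with DNA-binding factors of the Lef1 and Tcf7 family. Wif1 and the Sfrp proteins bind Wnt ligands outside the cell, Dkk1 blocks the Lrp co-receptors, and Rspo3 acts the other way by keeping receptors at the surface. Axin2, a scaffold of the beta-catenin destruction complex, and Nkd1, a Dishevelled-binding protein, are transcribed in response to the pathway and dampen it. In the growth plate, Wnt signals act on chondrocyte maturation and on bone formation. H3K4me3 marks active or poised promoters, H3K9ac and H3K27ac mark active promoters and enhancers, H3K36me3 lies over transcribed gene bodies, H3K27me3 is laid down by Polycomb repressive complex and is often found with H3K4me3 at developmental genes, and H3K9me3 marks heterochromatin.

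Promoter sequences from RefSeq (GRCm38.p6, the build that mm10 names) were matched for 8 of the 10 genes, the exceptions being Sfrp1 and Rspo3. Each runs from 250 bases before the listed start to 50 bases after it, 5′ to 3′ on the gene's strand. Those of Wif1 and Axin2 are shown because H3K27me3 was found near their starts in HC and not in PC, and that of Lef1 because both H3K4me3 and H3K27me3 lay over it in all libraries. CG dinucleotides are in capitals.
Wif1, chr10:121033754-121034053, plus strand: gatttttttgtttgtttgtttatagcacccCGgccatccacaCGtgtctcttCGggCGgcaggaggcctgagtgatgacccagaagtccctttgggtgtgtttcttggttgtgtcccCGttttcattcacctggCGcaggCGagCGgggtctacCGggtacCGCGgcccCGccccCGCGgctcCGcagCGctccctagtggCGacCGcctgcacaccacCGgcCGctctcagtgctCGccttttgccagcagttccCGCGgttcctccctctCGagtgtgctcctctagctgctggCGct
Axin2, chr11:108920099-108920398, plus strand: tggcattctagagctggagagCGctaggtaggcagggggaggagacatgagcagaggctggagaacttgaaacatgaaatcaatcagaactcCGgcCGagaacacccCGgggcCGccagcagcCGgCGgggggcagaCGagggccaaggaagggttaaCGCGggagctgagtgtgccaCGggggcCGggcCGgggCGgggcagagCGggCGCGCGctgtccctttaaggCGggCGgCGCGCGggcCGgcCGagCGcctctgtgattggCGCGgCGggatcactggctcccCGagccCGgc
Lef1, chr3:131110047-131110346, plus strand: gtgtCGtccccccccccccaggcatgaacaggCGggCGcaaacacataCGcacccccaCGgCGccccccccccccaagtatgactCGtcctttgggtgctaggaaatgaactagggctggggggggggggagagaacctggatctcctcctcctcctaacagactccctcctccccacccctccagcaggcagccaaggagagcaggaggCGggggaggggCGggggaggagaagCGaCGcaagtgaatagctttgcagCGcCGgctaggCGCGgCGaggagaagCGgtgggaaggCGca

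The Axin2 sequence held 31 CG dinucleotides, that of Wif1 25 and that of Lef1 18, against a median of 7 and quartiles of 3 and 20 over 32851 RefSeq promoters of the same length. Sequences at the other listed starts of Lef1 held 21, 8 and 5. The count was highest for Tcf7, at 45 for its first listed start and 17 for the second, and those of Sfrp2, Sfrp5, Dkk1 and Nkd1 held 22, 15, 9 and 6. The letters CTTTGAT and CTTTGTT, core forms of the Lef1 and Tcf7 binding motif, were searched on both strands. CTTTGTT was found once among the promoters of the 8 genes, in Dkk1, and CTTTGAT in none; 5.85% and 3.73% of all promoters held them. The Dkk1 sequence is shown with that match in capitals.
Dkk1, chr19:30549447-30549746, minus strand: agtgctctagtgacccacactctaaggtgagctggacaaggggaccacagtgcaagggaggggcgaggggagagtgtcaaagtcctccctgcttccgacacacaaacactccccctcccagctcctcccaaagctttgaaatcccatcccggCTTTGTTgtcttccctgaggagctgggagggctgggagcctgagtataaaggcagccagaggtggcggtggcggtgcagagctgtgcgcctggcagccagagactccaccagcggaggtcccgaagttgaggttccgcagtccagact

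All 10 genes carried H3K4me3 in every library at one position, which served as the anchor of a 4000 bp window. It was the listed start for Wif1, Sfrp2, Sfrp5, Dkk1, Axin2, Lef1 and Tcf7. It was the lower gene end for Sfrp1 and Nkd1 and the upper gene end for Rspo3. The listed start of Nkd1 lies 6291 bp inside its RefSeq span, and the windows there are described separately. Unless another window is named, promoter values are percent of the 4000 bp window at the H3K4me3-bearing end, with the PC and then the HC libraries in the order of their replicate numbers.

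In HC, all 10 promoters carried H3K27me3 together with H3K4me3 in both libraries of each mark, and in PC 6 of 10 did so in all 3. A promoter counted as carrying a mark when at least 200 bp of it were covered. Among all genes with H3K4me3 in every library of the group, at their own H3K4me3-bearing end, 21.6% carried both marks in PC and 24.7% in HC. The 4 genes without H3K27me3 in every PC library were the secreted inhibitor Wif1, the feedback genes Nkd1 and Axin2, and the secreted activator Rspo3. Wif1, Nkd1 and Axin2 had it in no PC library and in both HC libraries, a pattern shown by 1.33% of the 13866 genes with H3K4me3 in all 5 libraries, and none of the 10 genes showed the reverse, against 0.642%. With each list trimmed to the same total length by keeping its widest regions, the counts were 5 of 10 in both HC and PC, and with only the autosomal length equalised 8 of 10 in HC and 6 of 10 in PC. Trimming drops narrow regions first, under equal autosomal length those of Wif1 in both HC libraries and of Axin2 in 1. This window was chosen after the values were seen, and the members with earlier results known, so these counts lend no support. At the listed starts (both ends for Sfrp1 and Rspo3), 9 of 10 carried both marks in HC and 6 in PC. The shares of all H3K4me3-bearing genes there were 24.9% and 21.9%. Only Wif1 and Axin2 had H3K27me3 there in both HC and no PC libraries, against 3.81% of all genes with it.

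At Wif1, H3K27me3 covered 0%, 0% and 0% of the window in PC and 40.1% and 40.1% in HC. The groups did not overlap, and the region began at the same point in both HC libraries, 397 bp inside the gene, and was 2400 and 3200 bp wide (chr10:121034401-121036800 and chr10:121034401-121037600). In a limma model of covered percent over the 5061 genes covered in at least 2 libraries, the difference was 40.1 points with a standard error of 2.01 and an adjusted p of 0.00445. Wif1 was the one member called of 9 tested, and 4.66% of all tested genes were called higher in HC. Wif1 and Axin2 entered this test only through their HC values, and with no spread within either group the standard error of Wif1 came from the other genes. With the lists trimmed to equal length, or without either HC library, Wif1 fell under the minimum of 2 covered libraries and was not tested.

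Nkd1 had no H3K27me3 in its window in PC, at 0%, 0% and 0%, and 76.5% and 96.5% in HC. Both HC libraries held 1 continuous region (from -9341 bp, counted from the H3K4me3-bearing end, to 1058 or 1858 bp inside the gene). PC replicate 2 held a region with the same outer edge that stopped at -4542 bp, and the other PC libraries had none within 20 kb. The long non-coding RNA genes Gm35162 and Gm35076 lie 221 and 1797 bp below the Nkd1 span. The window and the HC regions reach both, and region lists do not say which gene a mark belongs to. The windows at Rspo3 were covered to 0%, 20% and 0% in PC and to 100% and 73.4% in HC. The single PC region, in replicate 6, was 800 bp wide, which is 1 step of the grid on which these lists were made, against 6400 and 4000 bp in HC.

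At Axin2 the covered share was 0%, 0% and 0% in PC and 38.7% and 18.7% in HC. Here the PC libraries did hold H3K27me3 next to the window, in regions that began 2852, 2852 and 2052 bp inside the gene. In HC the regions began 452 and 1252 bp inside. The far edges lay at 3651 or 4451 bp in both groups, so the blocks differed at the edge toward the start, by 1 to 3 grid steps. On the main scale Axin2 differed by 28.7 points (SE 7.06, limma adjusted p = 0.192), and it passed the threshold on the log2 scale (limma adjusted p = 0.0163). It entered both fits only through its HC values. These p-values are thus descriptions and lend no support.

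Placing every gene's window at its H3K4me3-bearing end, a choice made after the values were seen, gave limma differences of 86.5 points for Nkd1 (SE 9.19, adjusted p = 0.0298), 40.1 for Wif1 (SE 4.86, adjusted p = 0.0395) and 80.01 for Rspo3 (SE 13.3, adjusted p = 0.0810). In that fit 3.73% of 4992 genes were called higher in HC. Wif1, Nkd1 and Axin2 were uncovered in all 3 PC libraries there and entered this fit, too, only through their HC values, so these p-values are descriptions and lend no support. Nkd1 was not tested in the main fit, because its listed start was uncovered in all libraries.

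**Figure D1:**
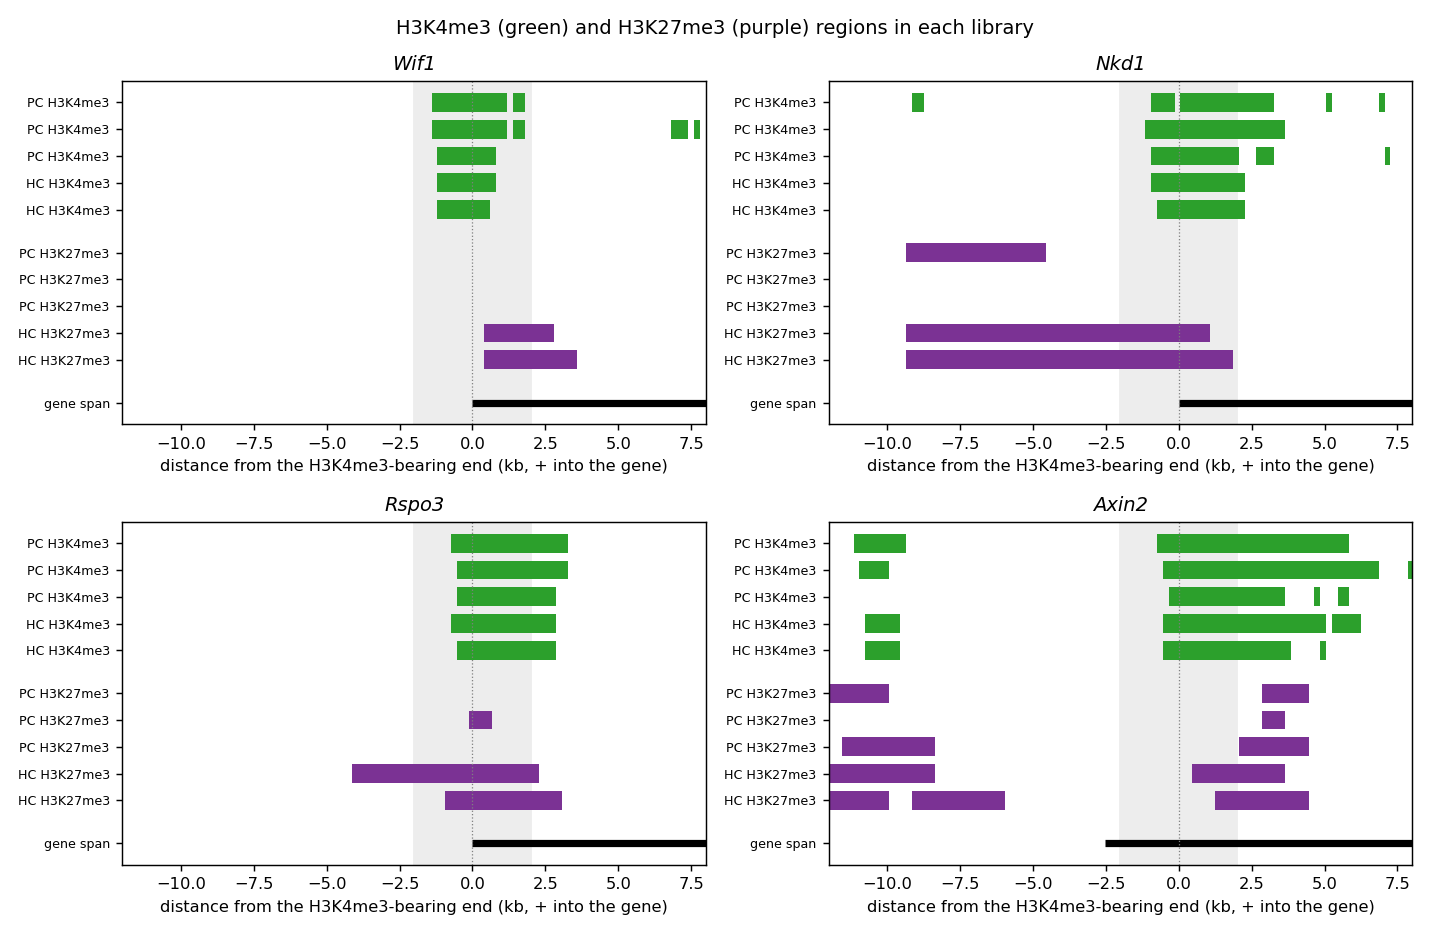
H3K4me3 (green) and H3K27me3 (purple) regions of each library, 1 row per library, against distance in kb from the H3K4me3-bearing end of Wif1, Nkd1, Rspo3 and Axin2 (positive into the gene; grey, the 4000 bp window; black, gene span). Purple regions enter the grey window in both HC libraries of all 4 genes, and in PC only in 1 library at Rspo3.

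The other 6 genes carried H3K27me3 in the window in every library of both groups. Sfrp1, a Frizzled-related Wnt binder, and the nuclear effectors Lef1 and Tcf7 were covered over 100% of the window in all 5 libraries. The Lef1 block was the widest of the 3, at 12000 to 14400 bp in PC and 14400 and 16800 bp in HC. Dkk1 stood at 100%, 100% and 87.4% in PC and at 100% in both HC libraries, and Sfrp5 at 100%, 93.7% and 100% against 100% in both. These 5 genes were at or near the ceiling of the measure, so a gain in HC could not have been seen there. Sfrp2 varied among the PC libraries, at 100%, 80% and 12%, and was covered fully in both HC libraries. The regions of PC replicates 6 and 8 lay beside the listed start and not over it. Its groups overlapped, and its difference of 36 points carried a standard error of 31.7 (limma adjusted p = 0.776).

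**Figure D2:**
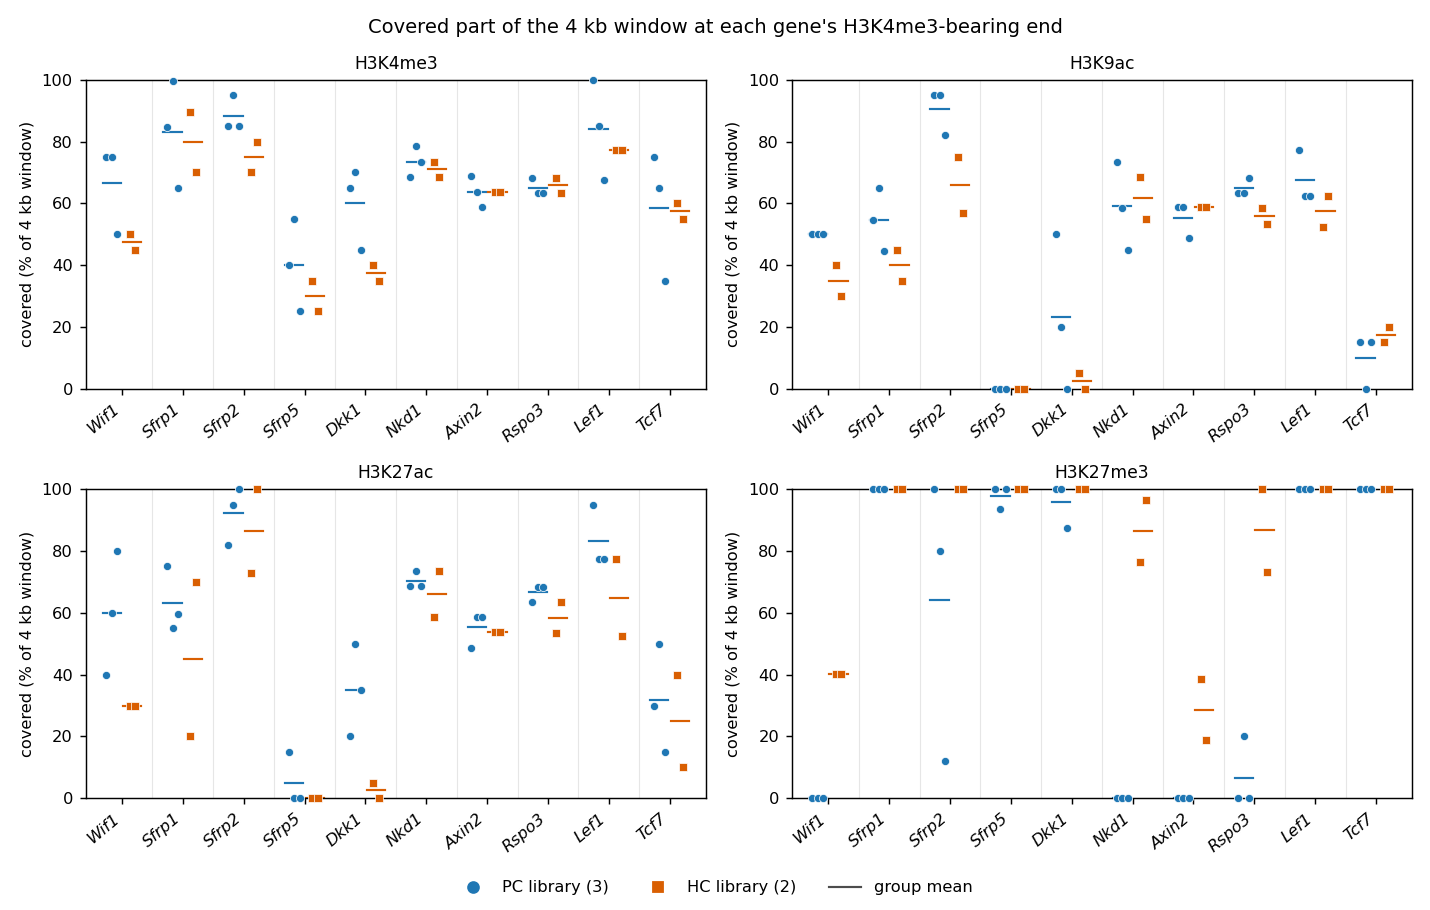
Covered percent of the 4000 bp window at the H3K4me3-bearing end of each gene for 4 marks; circles are PC libraries, squares HC libraries and horizontal lines group means. For H3K27me3, Wif1, Nkd1, Axin2 and Rspo3 lie at 0% to 20% in PC and at 18.7% to 100% in HC, and the rest are at the top of the scale in HC.

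Over the gene spans, 7 of the 10 genes had more H3K27me3 in every HC library than in every PC library, and none had less; 17.2% of all genes tested were higher and 9.13% lower in this way. They were Wif1, Sfrp1, Sfrp2, Nkd1, Axin2, Rspo3 and Lef1. A span includes the part of the promoter window inside the gene, so span and window values are not independent. The shares were small: Wif1 went from 0% in all 3 PC libraries to 3.60% and 9.60% in HC, and Lef1 from 4.30%, 4.30% and 5% to 10.6% and 5.70%. Only Sfrp2, with a span of 8565 bp, had larger ones, at 35.6%, 37.4% and 0% in PC and 44.96% in both HC libraries. With the lists trimmed to equal covered length the count was 3, and 4 with equal autosomal length.

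In the flanks, Sfrp5 was the one member called for H3K27me3. Its flanks to 50 kb were covered to 1.63%, 1.45% and 5.02% in PC and to 15.1% and 17.3% in HC, with no overlap. Every HC library was above every PC library at 2 of 9 members, Sfrp5 and Nkd1, against 20% of all genes. The reverse was seen at 1, Sfrp2, against 8.32%. The difference at Sfrp5 was 13.47 points (limma over 13890 genes, SE 1.98, adjusted p = 0.0334), and 1.66% of all genes were called higher. The same flanks hold Zfyve27, Marveld1 and Golga7b. The call was lost in 9 of 10 alternatives, its adjusted p running from 0.0394 to 0.912, so it stands on the processing chosen. For Sfrp2 the flanks went the other way, from 8.44%, 9.25% and 7.95% in PC to 4.38% and 5.19% in HC, below the threshold.

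H3K27ac in the promoter window at the listed start (both gene ends for Sfrp1 and Rspo3) had a lower mean in HC for all 9 members tested, but the test called none, and 0.00719% of all genes were called lower. Over all 13906 genes tested, 8265 had a lower HC mean. Every HC library was below every PC library at 3 of the 9, Wif1, Dkk1 and Nkd1, against 12.6% of all genes. The listed start of Nkd1 lies inside its span. At the H3K4me3-bearing end its groups overlapped, and the count was 2 of 9, Wif1 and Dkk1, also against 12.6% of all genes. The reverse was seen at none of the 9, against 6.31% of all genes. At an unadjusted p under 0.05, 3 of the 9 were lower and none higher, against 780 lower and 392 higher over all genes. The median difference of the 9 genes was -9.09 points, against -2.48 points over all genes. With a single library left out, Sfrp1, Sfrp2 and Tcf7 changed sign in some cases, and the Axin2 difference was 0 without PC replicate 5 or 8. The difference stayed below 0 for Wif1, Dkk1, Nkd1, Rspo3 and Lef1 whichever library was left out.

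The inhibitor Dkk1 had H3K27ac over 20%, 50% and 35% of its window in PC and over 5% and 0% in HC. The groups did not overlap, and the library at 0% was the one with the long list. The difference was -32.5 points (SE 9.27, unadjusted p = 0.0123, limma adjusted p = 0.451). H3K4me3 at Dkk1 was also lower in each HC library, with 65%, 70% and 45% in PC and 40% and 35% in HC. H3K9ac there varied from 0% to 50% among the PC libraries and was 5% and 0% in HC.

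Wif1 was covered by H3K27ac to 40%, 60% and 80% in PC and to 30% in both HC libraries, again without overlap (difference -30 points, SE 11.8, limma adjusted p = 0.574). H3K9ac at Wif1 was 50% in each PC library and 40% and 30% in HC. Its H3K4me3 overlapped between the groups, at 75%, 75% and 50% against 50% and 45%.

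For H3K9ac, every HC library was below every PC library at Wif1, Sfrp2 and Rspo3, 3 of 9 genes, where 10.2% of all genes were lower in this way at their H3K4me3-bearing end. Sfrp2 had 95%, 95% and 82% in PC and 75% and 57% in HC (difference -24.7 points, SE 7.81, limma adjusted p = 0.705). Its H3K4me3 was also lower in each HC library, making it and Dkk1 the 2 of 10 genes with that pattern, against 4.08% of all genes. At Rspo3 the step was smaller, from 63.4%, 63.4% and 68.4% to 58.4% and 53.4%.

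At the H3K4me3-bearing end, the H3K4me3 and H3K27ac values of the feedback genes overlapped between the groups. Axin2 had H3K4me3 over 68.7%, 63.7% and 58.7% in PC and 63.7% in both HC libraries. Its H3K27ac was 48.7%, 58.7% and 58.7% in PC and 53.7% in both HC libraries, and the limma interval of the difference (-1.67 points, SE 6.48) leaves room for a change either way. Nkd1 at its H3K4me3-bearing end had H3K27ac over 68.5%, 73.5% and 68.5% in PC and 58.5% and 73.5% in HC. Both genes thus carried H3K27me3 in HC beside H3K4me3 and H3K27ac that overlapped the PC values. Whether these marks lie on the same chromatin or in different cells of the sorted population cannot be told apart in these lists.

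At the listed start inside Nkd1, where H3K4me3 was 10%, 0% and 5% in PC and 0% in HC, H3K27ac covered 60%, 34.2% and 25% in PC and 0% and 9.20% in HC. H3K36me3 covered between 80% and 100% of that window in all 5 libraries. The H3K27ac groups did not overlap, and the difference of -35.1 points did not pass the test (SE 10.8, limma adjusted p = 0.476).

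Of the nuclear effectors, Lef1 kept broad active marks beside its H3K27me3 block, with H3K27ac over 95%, 77.4% and 77.4% in PC and 77.4% and 52.4% in HC. Tcf7 had less, at 30%, 50% and 15% against 40% and 10%, with H3K9ac at no more than 20% in any library. Sfrp5 was the gene with the least active chromatin. It had no H3K9ac in any library, H3K27ac in 1 PC library at 15%, and H3K4me3 over 40%, 55% and 25% in PC and 35% and 25% in HC.

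Within the gene spans H3K27ac was lower in every HC library at 5 of 9 genes, Wif1, Sfrp1, Dkk1, Axin2 and Lef1, and higher at none. Of all genes, 13.1% were lower and 6.95% higher. Here, too, spans include the inner part of the promoter window, and the span of Dkk1 is only 3621 bp. Axin2 had the widest cover, 59.5%, 43.7% and 29.7% of its span in PC and 19.4% and 15.8% in HC. A stretch of merged regions inside the gene (chr11:108925601-108938200) held 12400, 7200 and 6000 bp of H3K27ac in the PC libraries and 2000 and 1400 bp in HC. In Wif1 the span was covered to 21.3%, 7.50% and 11.7% in PC and 2.40% and 5.70% in HC. Nkd1 stood apart, since HC replicate 7 reached 35.98% of the span, above the 10.9% to 18.8% of the PC libraries, while HC replicate 5 stood at 11.8%.

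Outside the promoters of the 10 genes, 188 merged H3K27ac regions lay in these genes and their flanks, and most were found in only some libraries. Some lay within 2 kb of the start of another gene. Among those seen in all libraries, regions at Marveld1, Zfyve27, Hadh and Skp1 did so. Of the 188 regions, 5 were seen in all 3 PC and no HC library, 1 in both HC and no PC library, and 9 in all libraries. Over the genome 2.15%, 1.05% and 4.46% of 137719 such regions fell in these classes. The counts of 5, 1 and 9 out of 188 lie near these shares and do not set the members apart. Of the 5, 2 belong to Wif1, at chr10:120983401-120985800 in the upstream flank and chr10:121040801-121041800 inside the gene. The longest of the 5 lay inside Sfrp1 (chr8:23435201-23439400), with 2800, 2000 and 2200 bp of H3K27ac in PC and 0 bp in HC. The others were inside Sfrp2 (chr3:83768801-83770400) and upstream of Tcf7 (chr11:52318801-52319600). The HC region lay inside Nkd1 (chr8:88554601-88556000), with 200 and 1400 bp. None of these 6 regions was covered along most of its length in each library of its group, so the classes depend on how presence is set. With 1 library left out the counts ranged from 7 to 16, 1 to 19 and 9 to 19. The extremes came without HC replicate 7 (16 PC regions) and without HC replicate 5 (19 HC regions and 19 in all libraries), and with lists of equal length the counts were 0, 0 and 3.

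**Figure D3:**
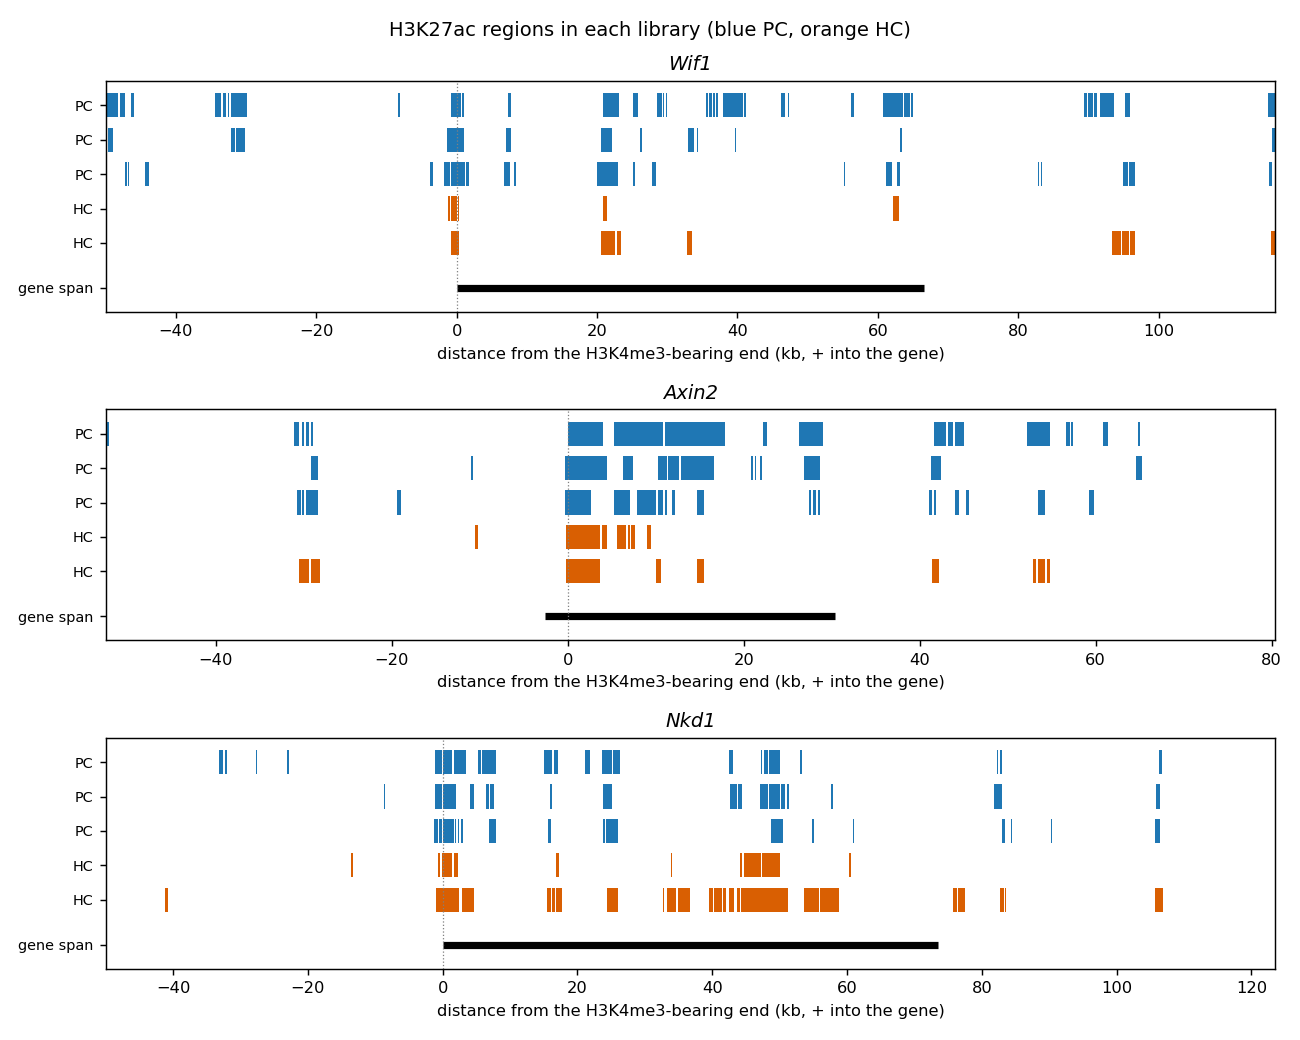
H3K27ac regions of each library in and around Wif1, Axin2 and Nkd1, against distance in kb from the H3K4me3-bearing end (blue, 3 PC libraries; orange, 2 HC libraries; black, gene span). Inside Axin2 the PC libraries hold 6000 to 12400 bp in the merged stretch and the HC libraries 1400 and 2000 bp; inside Nkd1, HC replicate 7 has the widest cover.

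H3K36me3, the mark of transcribed gene bodies, was lower in every HC library at 5 of 8 genes tested and higher at 1; 9% of all genes were lower and 8.19% higher in this way. The limma test called none of the 13688 genes, at 381 higher and 481 lower by unadjusted p, so none of these differences passed. The lists were longer in PC (481 to 612 Mb) than in HC (379 and 475 Mb). Wif1 was covered over 66.99%, 53.8% and 77.8% of its span in PC and over 32.4% and 45.6% in HC (difference -27.2 points, SE 10.9, limma adjusted p = 0.756).

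Sfrp1 went from 69.1%, 62.8% and 52.4% to 25.1% and 48.1%, and Lef1 from 70.5%, 73.6% and 66.9% to 25.95% and 56.8%. In both genes the lower HC value came from replicate 5, which had the shorter list. Rspo3 had 34.4%, 19.3% and 49.9% in PC and 18.96% and 11.2% in HC, and Nkd1 87.02%, 77.9% and 80.1% against 72.5% and 74.6%. For Nkd1 the difference was -8.12 points as deposited and -0.14 with the lists trimmed to equal length.

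Tcf7 had the opposite order, with 27.9%, 38.7% and 37.4% in PC and 53.9% and 58.3% in HC (difference 21.4 points, SE 9.51, limma adjusted p = 0.808). Its 3′ side overlaps Skp1 in the RefSeq annotation, and region lists do not say which gene a mark belongs to. Axin2 had the highest group means of the 10 genes, with 73.99% to 86.7% in all libraries, and its groups overlapped. Sfrp5 and Dkk1, both covered by H3K27me3 in every library, had no H3K36me3 over their spans, the shortest of the 10 at 4282 and 3621 bp. Sfrp1, Sfrp2, Lef1 and Tcf7 also carried H3K27me3 at the promoter in every library. They had H3K36me3 over at least 25% of the span in all 5 libraries.

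**Figure D4:**
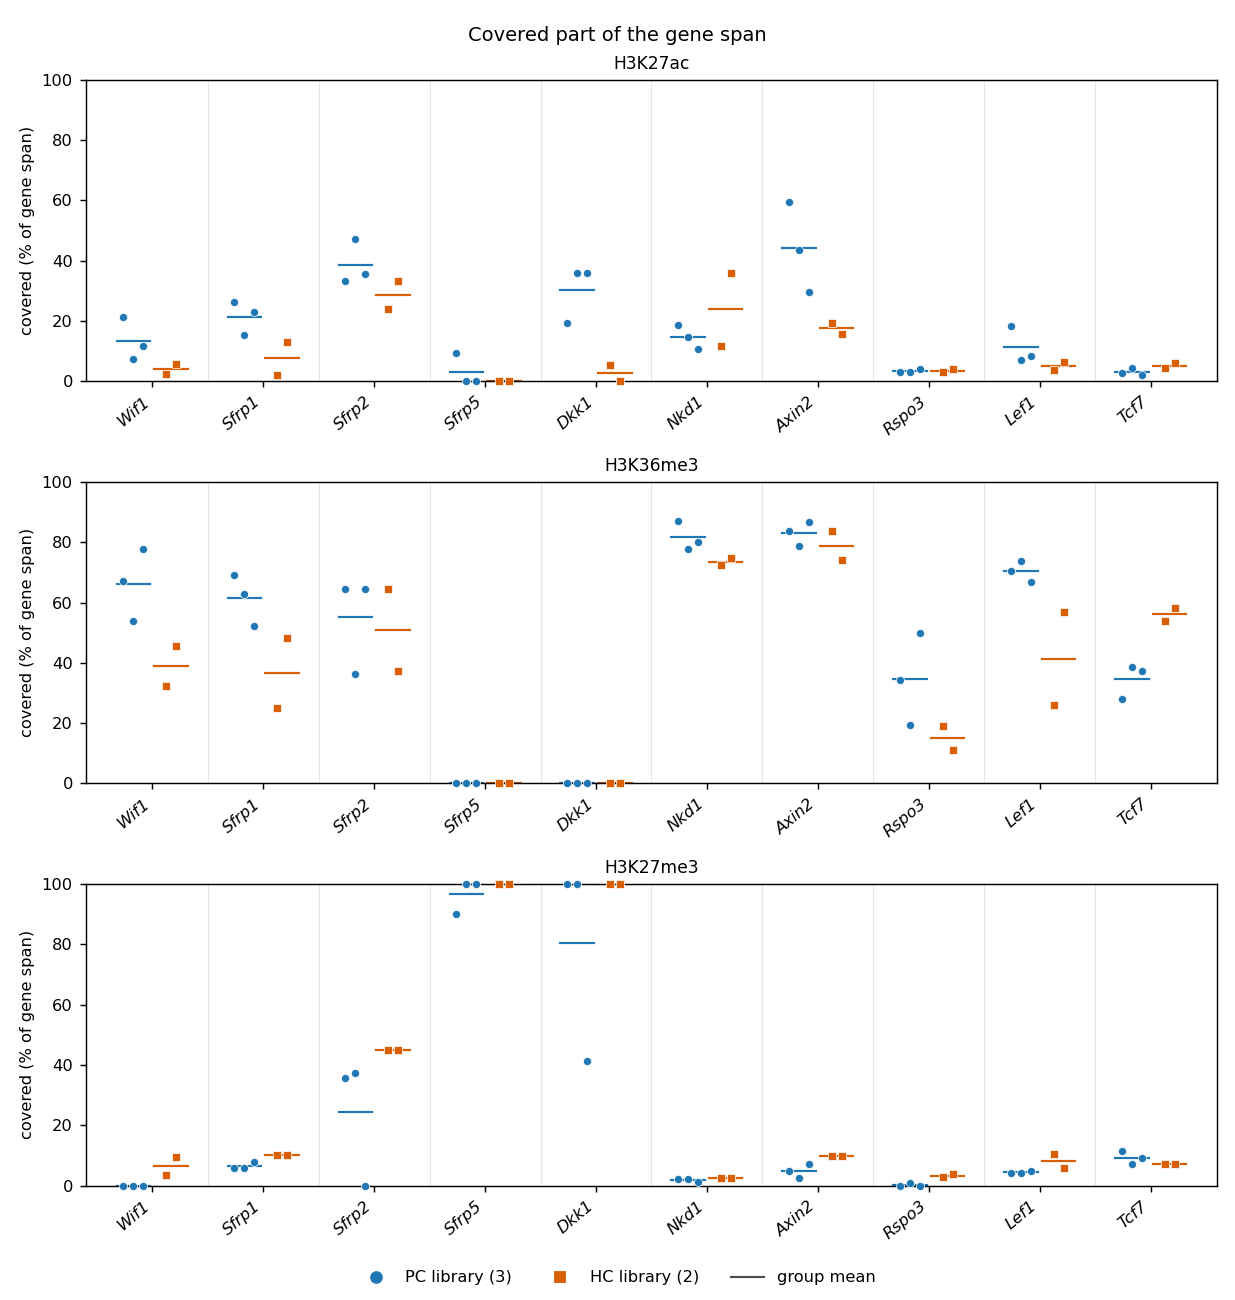
Covered percent of each gene span for H3K27ac, H3K36me3 and H3K27me3; circles are PC libraries, squares HC libraries and horizontal lines group means. H3K36me3 of Wif1, Sfrp1, Nkd1, Rspo3 and Lef1 is lower in both HC libraries than in any PC library, and that of Tcf7 is higher.

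H3K9me3 separated the groups at 2 promoters, both covered by H3K27me3 in all libraries. At the Lef1 start it covered 32.6%, 20% and 72.6% in PC and 100% in both HC libraries, and at Sfrp5 93.7%, 73.7% and 73.7% in PC and 0% and 53.7% in HC. Neither gene's groups overlapped, and each was the one member of 6 covered in at least 2 libraries to move its way, against 5.44% of all genes higher and 11.3% lower. Dkk1 had 47.4%, 100% and 60% in PC and 0% and 47.4% in HC, where the groups touched. The 0% at Sfrp5 and Dkk1 both came from HC replicate 2, whose list was the longer of the HC lists, at 242 Mb against 133 Mb. Over gene spans no member was called, in a fit that called none of 10547 genes (101 higher and 633 lower by unadjusted p).

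Of 59 other Wnt pathway genes, 2 passed a test among the 8 fits. At Lgr6, a receptor for R-spondins, H3K27me3 covered 99.4% ± 1.08 of the promoter in PC (SD, n = 3) and 79.1% ± 1.33 in HC (SD, n = 2), a limma difference of -20.3 points (SE 1.04, adjusted p = 0.00746), and 0.988% of all genes were called lower. The call was lost without either HC library (adjusted p = 0.0743 and 0.0812) and with 1 kb windows, both gene ends or H3K4me3-bearing ends (adjusted p = 1, 0.641 and 0.0809). The flanks of Sp5, a transcriptional target of the pathway, were covered by H3K27me3 to 22.3% ± 7.76 (SD, n = 3) and 58.4% ± 4.04 (SD, n = 2) (difference 36.1 points, SE 5.62, limma adjusted p = 0.0401). That call was lost in 7 of 10 alternatives, with adjusted p up to 0.949. At promoters the 26 other pathway genes tested for H3K27me3 had a median difference of 0.37 points, against 4.21 points for the 9 members and 0 over all 5061 genes. Wif1 and Axin2 entered that test only through their HC values, which raised the median of the 9. Of the 9 members, 3 had a difference of 0. These medians are descriptions and lend no support.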

How the data were processed

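The 30 deposited region lists (start and end positions, on mm10 per the submitters' processing notes) hold no score or count; those notes name FastQC and Picard, and aligner and caller were not given in the sources used here. The 11 IgG libraries and the authors' overlap lists were not used. Members and lists were chosen with earlier results of these data known. Covered percent was computed over the promoter (2 kb either side of the listed start, or of both gene ends for the 4395 of 21887 genes with none), the RefSeq span and 50 kb flanks. PC and HC were compared with limma 3.58.1 (trend, robust, Benjamini-Hochberg at 0.05) in R 4.3.3, in 8 fits over genes covered in at least 2 libraries; Python 3.11.15 did the rest. An exact permutation test of 3 against 2 libraries cannot go below 0.1. The limma step was tested on simulated data; for H3K27me3 it made more false calls than its threshold implies. Alternatives were trimmed lists, log2(percent + 1), other windows, no filter and left-out libraries. Named pathway genes are those past 0.05 in any fit.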

Additional observations from a re-analysis of the deposited data

How the results depend on the processing

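Equal autosomal length, the H3K4me3-bearing end and the alternatives for gene-span gains and for both marks there were chosen after seeing the data. Counts of calls are over all genes, with the deposited-list value first. Trimming to equal covered length changed H3K4me3, H3K9ac and H3K27ac promoter calls from 3, 1 and 1 to 0 each and H3K27me3 flank calls from 242 to 20; the log2 scale gave 0, 0, 0 and 41, and 117 H3K9me3 calls from 0. With no filter the counts were 69, 53, 19 and 49, with 49 for H3K36me3, 3 for H3K9me3 and 25 for H3K27ac flanks (from 0); the H3K27me3 promoter could not be fitted. A window of 1 kb gave 156, 277 and 172; both gene ends gave 0 for H3K9ac and H3K27ac, and the H3K4me3-bearing end 2 for H3K27ac. Equal autosomal length gave 183 H3K27me3 promoter and 33 flank calls (from 286 and 242). Members called for the H3K27me3 promoter numbered 1, and 0, 2, 2, 0 and 2 under equal length, log2, both ends, equal autosomal length and the H3K4me3-bearing end; for its flank 1, and 0 under equal length, log2, no filter, 100 kb flanks and equal autosomal length. Member counts under stricter presence (800 bp, or 50% of the span) were 2 for H3K27ac (from 0), 1 for H3K27me3 (from 2) and 3 for H3K36me3 (from 0), and under equal length 0 for H3K27me3; genes with both marks in HC went from 9 (listed windows) to 4 and from 10 (H3K4me3-bearing end) to 5. Distal H3K27ac regions in PC, HC and all libraries went from 5, 1 and 9 to 0, 0 and 2 when most of each region had to be covered and to 0, 0 and 3 at equal length. H3K27me3 span gains went from 7 to 3 and, at equal autosomal length, 4.

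Leaving out 1 library gave ranges of 0 to 8 (H3K4me3), 0 to 0 (H3K9ac and H3K27ac), 125 to 398 (H3K27me3 promoter; members 0 to 1), 0 to 392 (H3K9me3; members 0 to 1, Nkd1 without PC replicate 6) and 0 to 350 (H3K27me3 flank; members 0 to 1). Presence calls ranged from 0 to 1 for H3K4me3, H3K27ac, H3K36me3 and H3K9me3. Distal regions ranged from 7 to 16 (PC), 1 to 19 (HC) and 9 to 19 (all).

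Of 466 alternative values for 47 gene results, 433 changed neither call nor sign, counting differences of 0 as no change of sign, 21 lost a call, 2 gained one and 10 reversed. Reversed were Sfrp1 H3K9ac with 1 kb (0.68) and Sfrp2 H3K27ac at equal length (1.83); with 1 library left out, Sfrp1 H3K27ac ranged from -21.6 to 3.41, Sfrp2 from -19.3 to 7.67 and Tcf7 from -21.7 to 8.33, and H3K36me3 of Sfrp2 from -17.7 to 9.34 and of Axin2 from -9.09 to 0.617. The causes were not tested. For H3K9ac, where numbers 2 and 3 occur in both groups, a replicate block gave 0 calls against 1; same-numbered libraries share only a number (correlation of deviations -0.03 and 0.07 over 13521 genes). For the other marks no paired analysis was possible because the groups share fewer than 2 numbers. With positions only and 2 HC libraries, small differences cannot be seen, nor gains at windows already covered.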
